A study of Mus musculus with 6 samples.

Results

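The regions described here are ChIP-seq peaks of C/EBPα, IRF8 and JUNB in mouse macrophages that the deposited annotation places in an intron or between genes and that its detailed annotation marks with CpG, the label for a CpG island. They were taken by that rule from all 6 peak lists, and 963 of 134964 peaks met it. After overlapping peaks of the 6 lists were merged, they made up 687 of 60856 regions (1.13%), with 649 nearest genes. The lists came from wild-type bone marrow-derived macrophages (BMDMs) of mice aged 8 to 12 weeks. These are primary macrophages, grown for 6 days in L929 supernatant, a source of macrophage colony-stimulating factor. The control cells got no IL-4 per their labels, and the treated cells got IL-4 at 20 ng/ml for 1 h. Each antibody and condition was represented by a single sample without replicate, and no difference below was tested.

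CpG islands are stretches of DNA that are rich in G and C and have kept the CpG dinucleotides that the rest of the mammalian genome has largely lost to methylation and mutation. Most of them are unmethylated and overlap gene starts, including starts that an annotation misses or assigns to another transcript, and others lie inside or between genes. C/EBPα is a lineage factor of myeloid cells that binds as a dimer through a basic leucine zipper. IRF8 binds interferon response elements and, together with the ETS factor PU.1, composite ETS-IRF elements, and JUNB is a subunit of AP-1, which also has a basic leucine zipper. IL-4 signals through STAT6 and drives alternative macrophage polarization.

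To show what such regions look like, 200 bp windows around the centre of 7 peaks were read from the mm10 assembly, + strand. Of these, 6 head a ranking by score and Kdm6b was chosen as a region with all 3 factors, after its values were seen. They are referred to again beside their values. Capitals mark matches, on either strand, to a C/EBP-type site (TTGCNNAA), an interferon-stimulated response element core (GAAA and GAAA with 2 bases between them), an ETS-IRF composite element (GGAA and GAAA with 2 bases between them), a PU.1-type site (GAGGAAGT or GAGGAAGC) and an AP-1 site (TGACTCA or TGAGTCA). A PU.1-type match can overlap an ETS-IRF match, as it does at Cxcr4. The first 4 windows are the highest C/EBPα peak (Sgca, chr11:94979019-94979218), the highest IRF8 peak (Cxcr4, chr1:128590886-128591085), the highest JUNB peak of the control list (Azin1, chr15:38470776-38470975), and a region with all 3 factors (Kdm6b, chr11:69410462-69410661). The last 3 windows were bound in 1 condition only by the factor named: Ier3 (C/EBPα, IL-4, chr17:35821866-35822065), Rps24 (IRF8, IL-4, chr14:24779240-24779439) and Zfp217 (IRF8, control, chr2:170133368-170133567).
Sgca: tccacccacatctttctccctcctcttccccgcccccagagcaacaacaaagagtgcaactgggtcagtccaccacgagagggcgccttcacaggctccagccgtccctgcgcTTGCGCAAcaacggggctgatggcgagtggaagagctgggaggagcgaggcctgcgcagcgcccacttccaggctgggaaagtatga
Cxcr4: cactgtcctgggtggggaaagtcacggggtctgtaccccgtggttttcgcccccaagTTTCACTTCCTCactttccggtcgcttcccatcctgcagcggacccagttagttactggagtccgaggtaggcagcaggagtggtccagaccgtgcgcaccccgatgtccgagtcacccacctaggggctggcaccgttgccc
Azin1: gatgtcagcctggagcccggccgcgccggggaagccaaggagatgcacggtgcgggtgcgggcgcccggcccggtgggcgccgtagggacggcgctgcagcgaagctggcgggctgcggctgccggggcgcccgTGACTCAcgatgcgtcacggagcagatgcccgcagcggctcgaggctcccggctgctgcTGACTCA
Kdm6b: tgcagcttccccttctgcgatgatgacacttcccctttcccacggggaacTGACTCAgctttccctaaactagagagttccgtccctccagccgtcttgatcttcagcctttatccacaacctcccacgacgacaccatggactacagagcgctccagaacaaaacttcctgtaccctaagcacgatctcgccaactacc
Ier3: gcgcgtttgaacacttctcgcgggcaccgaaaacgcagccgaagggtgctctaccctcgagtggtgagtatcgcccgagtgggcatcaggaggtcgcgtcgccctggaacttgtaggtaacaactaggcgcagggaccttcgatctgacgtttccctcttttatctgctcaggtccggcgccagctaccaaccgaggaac
Rps24: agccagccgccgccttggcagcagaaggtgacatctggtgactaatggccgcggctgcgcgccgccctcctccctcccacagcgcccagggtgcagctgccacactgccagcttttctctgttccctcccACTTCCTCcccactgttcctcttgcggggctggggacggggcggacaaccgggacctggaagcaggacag
Zfp217: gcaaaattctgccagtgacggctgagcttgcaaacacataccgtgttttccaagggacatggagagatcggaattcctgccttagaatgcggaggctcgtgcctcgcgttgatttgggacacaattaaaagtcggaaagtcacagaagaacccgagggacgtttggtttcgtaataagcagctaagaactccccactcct

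The windows differed in CpG number and in matches. The Azin1 window held 27 CpGs at 75.5% GC and a pair of AP-1 matches, and the Zfp217 window held 11 CpGs at 49.5% GC and no match. At Sgca the only match of these kinds was the C/EBP-type one, 13 bp from the peak centre. In the Cxcr4 window, which is centred on the control peak, the ETS-IRF match began 43 bp before the centre. The window centred on the IL-4 peak of Cxcr4, which is 680 bp wide against 469 bp in control, missed it.

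The rule does not keep the peaks away from gene starts. Of the 687 regions, 537 (78.2%) had a GENCODE transcript start within 1000 bp of the peak centre. The distance to the nearest transcription start site (TSS) in the deposited annotation had a median of 1330 bp for C/EBPα control, 1455 bp for C/EBPα IL-4, 737 bp for IRF8 control and 650 bp for IRF8 IL-4. For the other intronic and intergenic peaks of the same lists the medians were 24065, 23376, 25619 and 25809 bp. The CpG-island peaks therefore sat mostly just beyond the annotated promoter class, and they are called intronic and intergenic CpG-island peaks here, not distal ones.

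The share within 2000 bp of the deposited TSS was 63.1% (Wilson 95% interval 53.8 to 71.5%) for C/EBPα control and 60% (50.4 to 68.9%) for C/EBPα IL-4. It was 63.9% (57.8 to 69.6%) for IRF8 control and 66.2% (61.8 to 70.3%) for IRF8 IL-4. The control and IL-4 intervals overlapped for both factors. Among the other intronic and intergenic peaks of these 4 lists, 6.16 to 6.97% lay as close. These intervals, like all others here, cover counting error only.

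The 2 factors differed in the first kilobase. IRF8 had 54.4% of its control and 57.4% of its IL-4 CpG-island peaks under 1000 bp from the TSS, and C/EBPα had 39.6% and 34.3%. C/EBPα had more of them between 1000 and 2000 bp, with 23.4% and 25.7% against 9.52% and 8.77%. Most lay downstream of the TSS, from 62.9% for C/EBPα IL-4 to 76.0% for IRF8 IL-4, against about 58% of the other intronic and intergenic peaks of those lists (57.9 to 58.3%). Both kinds leave out promoter peaks, which lay within 1000 bp of the TSS and mostly upstream, with 16.9 to 24.3% downstream. The CpG-island peaks lay closer to the TSS than the others, and the part of this annotation rule in the downstream share was not tested. Introns held 59.0 to 71.0% of the C/EBPα and IRF8 CpG-island peaks, among them those at Cxcr4, Eif4a1, Arid5a, Ankfy1 and Kdm6b.

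**Figure D1:**
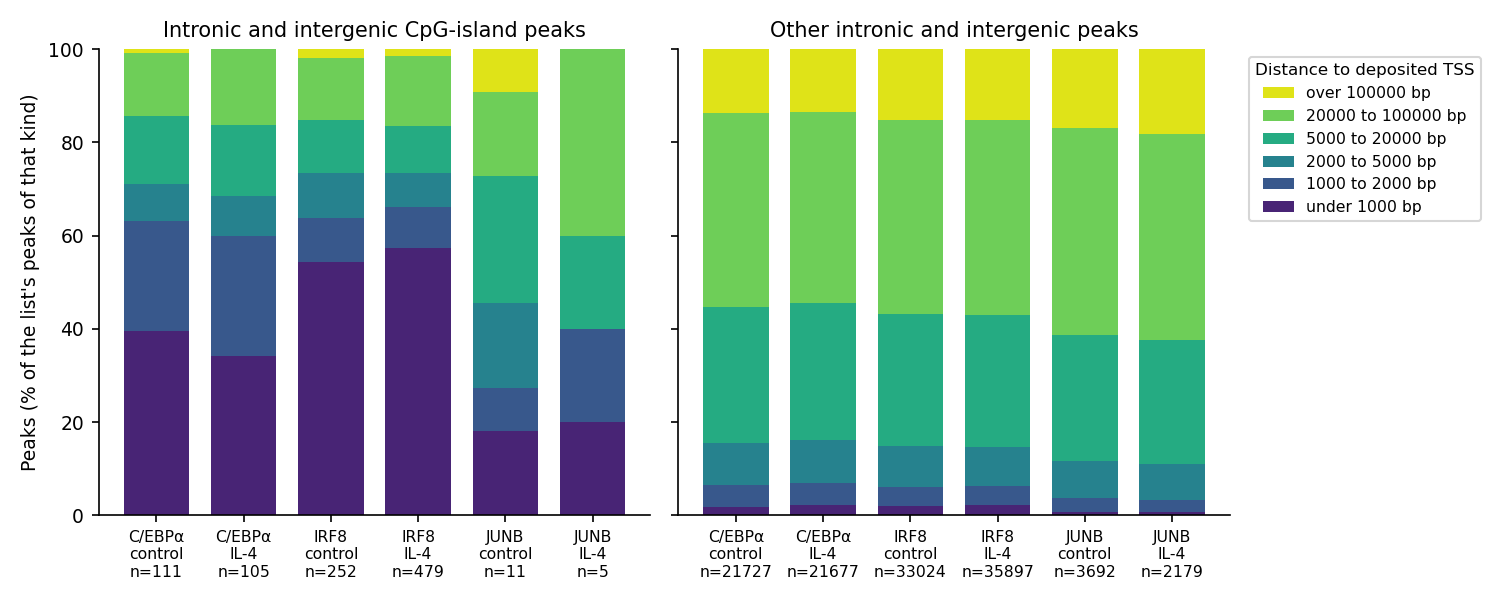
Share of peaks (%) by distance to the deposited TSS (bp) in each of the 6 lists, with the number of peaks under each bar, for CpG-island peaks (left) and the other intronic and intergenic peaks (right). Between 60 and 66.2% of the C/EBPα and IRF8 CpG-island peaks lay within 2000 bp, against 6.16 to 6.97% of the others.

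The sequence fitted the CpG part of the label, which is a check of the label only, since the rule itself selects CpG islands. The median GC of the 200 bp windows was 63.5% and 63% for C/EBPα control and IL-4, 64.8% and 66.5% for IRF8, and 66.5% and 71% for JUNB, against 45 to 46% for the other intronic and intergenic peaks. The median ratio of observed to expected CpG ran from 0.675 to 0.856 over the 6 lists, against 0.183 to 0.197. Of the 687 regions, 622 (90.5%) had a GC of at least 50% and a ratio of at least 0.6. Chromosome 11 held the most regions, 66 (9.61%, against 6.54% of all regions), and the X chromosome held 6. The largest number of regions at 1 gene was 3, at Arid2, a subunit of a chromatin remodelling complex, at Vrk1, a kinase, and at Tac4, a tachykinin.

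IRF8 had the most CpG-island peaks and the largest rise in their number with IL-4. The number was 252 of 37525 peaks in control (0.672%, 0.594 to 0.759%) and 479 of 42076 with IL-4 (1.14%, 1.04 to 1.24%), a ratio of 1.90 (1.63 to 2.21). C/EBPα had 111 of 24486 (0.453%) and 105 of 24612 (0.427%), a ratio of 0.946 (0.725 to 1.23). JUNB had 11 of 3940 (0.279%) and 5 of 2325 (0.215%), a ratio of 0.455 (0.165 to 1.25). The IRF8 interval alone excluded 1. It covers counting error over the peaks of 1 sample per group and is not a test of an IL-4 effect.

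The IRF8 CpG-island peaks rose in number by more than the list as a whole. All IRF8 peaks rose in number by a factor of 1.12, promoter peaks by 1.42 and all intronic and intergenic peaks by 1.09. For JUNB the whole list shrank, with a ratio of 0.590 over all peaks. The IRF8 CpG-island peaks were more numerous with IL-4 in every band of score. They went from 84 to 183 under a score of 5 and from 100 to 170 between 5 and 10. Between 10 and 20 they went from 47 to 76, and at 20 or more from 21 to 50. All IRF8 peaks under a score of 5 also rose, from 6934 to 9760. As a share of all IRF8 peaks in the 4 bands, CpG-island peaks went from 1.21 to 1.88%, 0.873 to 1.45%, 0.565 to 0.843% and 0.194 to 0.431%. With the 2 IRF8 lists cut to equal length by score, the ratio was 1.49, and for JUNB, cut the same way, it was 1.25.

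GC content moved with this rise. Over all IRF8 peaks the ratio of IL-4 to control numbers was 1.04 under 40% GC, 1.08 from 40 to 50%, 1.17 from 50 to 60% and 1.90 at 60% or more. Among IRF8 peaks with at least 60% GC, the CpG-island peaks rose by 2.17, from 178 to 386. The promoter peaks of that GC rose by 1.99, and the other intronic and intergenic peaks by 1.43, from 284 to 407. C/EBPα had a ratio of 0.974 and JUNB of 0.529 over all peaks of at least 60% GC. Which library kit was used for which sample and the sequencing depth are not given in the sources used here, so their part in the IRF8 rise was not tested. Nor was the part of GC content.

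**Figure D2:**
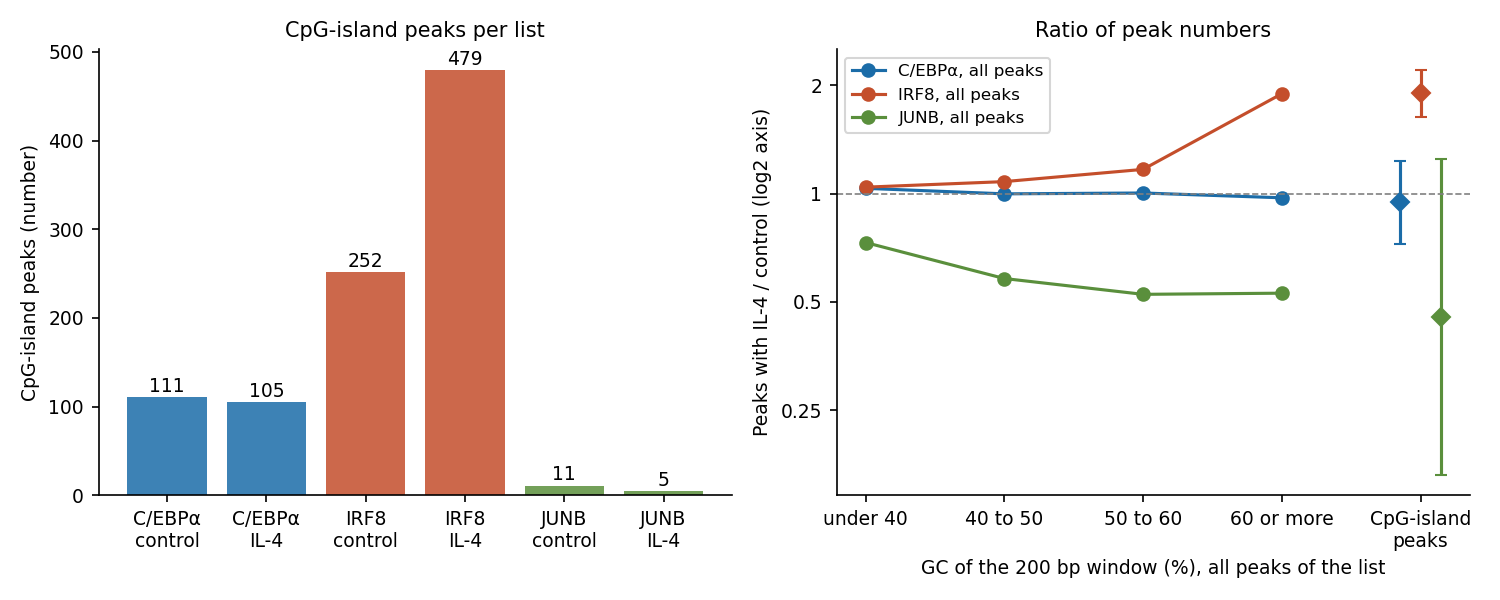
Left, number of CpG-island peaks in each of the 6 lists. Right, IL-4 over control ratio of peak numbers (log2 axis) over all peaks by GC of the 200 bp window (circles) and for the CpG-island peaks (diamonds, with Wilson 95% intervals). IRF8 is at 1.90 over all peaks in the GC bin of 60% or more, a bin that includes CpG-island peaks. It is also at 1.90 for its CpG-island peaks of any GC, and at 2.17 for those of 60% or more (not drawn). C/EBPα stays near 1.

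Outside the IRF8 IL-4 list, CpG-island peaks of C/EBPα and IRF8 were kept about as often as other peaks. A peak counted as kept when a peak of the same factor in the other condition overlapped it by at least 1 bp. Of the C/EBPα control peaks, 84 of 111 (75.7%, 66.9 to 82.7%) were kept and 27 (24.3%) were not, where 21.4% of all C/EBPα control peaks were not kept. With IL-4, 29 of 105 C/EBPα peaks (27.6%) had no control peak, against 22% of the whole list. Of the IRF8 control peaks, 186 of 252 (73.8%, 68.1 to 78.9%) were kept and 66 (26.2%) were not, against 21.4% of all IRF8 control peaks. These shares were near the background.

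The IRF8 IL-4 list stood apart. Only 196 of its 479 CpG-island peaks (40.9%, 36.6 to 45.4%) had a control peak, and 283 (59.1%) did not, against 30.4% of all IRF8 IL-4 peaks. Of the IRF8 IL-4 promoter peaks, 52.0% had a control peak. The share among CpG-island peaks was 40.6% with a GENCODE start within 1000 bp and 42.3% without one.

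The peaks without a partner were weak. The 283 IRF8 peaks seen with IL-4 only had a median score of 4.8 and a highest score of 18.4, and the 196 kept ones had a median of 11.2 and reached 222. The score is the authors' and has no stated unit, with larger values for stronger calls. Within bands of score, 15.3% (10.8 to 21.2%) of the IRF8 IL-4 CpG-island peaks under 5 were kept, against 34.2% of other intronic and intergenic peaks in that band. Between 5 and 10 the shares were 32.9% (26.3 to 40.3%) and 61.1%. At 20 or more, 50 of 50 were kept, against 98.6% of the others. The gap therefore lay at low scores. In the IRF8 control list, 78% (lower bound 68.9%) of the CpG-island peaks scoring 5 to 10 were kept, against 67.4% of the others.

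**Figure D3:**
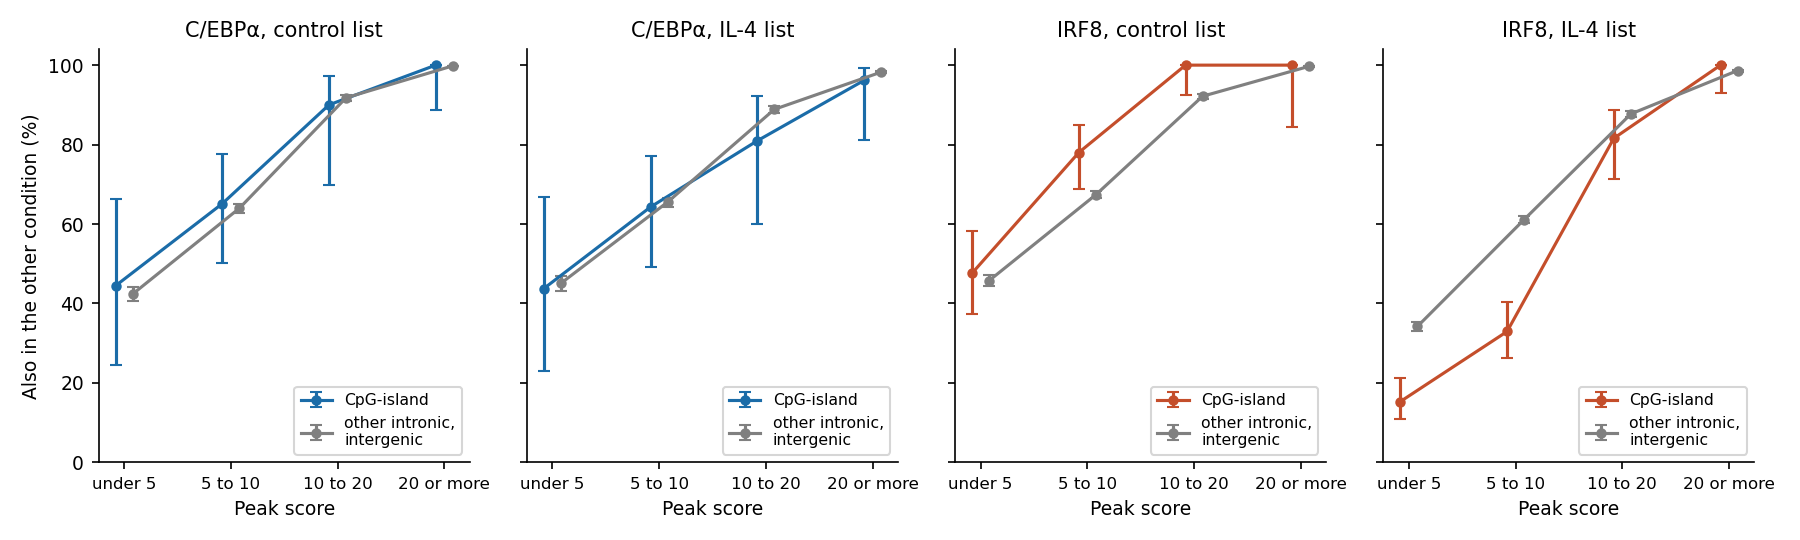
Share of peaks also found in the other condition (%) by band of peak score, for CpG-island peaks (coloured) and other intronic and intergenic peaks (grey), in the C/EBPα and IRF8 lists, with Wilson 95% intervals. The 2 kinds of peak lie apart under a score of 10 in the IRF8 IL-4 list, at 15.3 and 32.9% against 34.2 and 61.1%.

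The highest peaks found in 1 condition only are the extremes of their groups. For C/EBPα with IL-4 they were at Ier3, an immediate early gene, with a score of 22.5, at H2afz, which encodes the histone variant H2A.Z, with 13.04, and at Ddx5, an RNA helicase, with 12.1. In control only they were in intron 1 of Sh2b3, at 11.1, at Ascl2, a basic helix-loop-helix factor, at 10.4, and at Nfil3, a basic leucine zipper repressor, at 9.52. The Ier3 peak was 546 bp wide in intron 1, and its window printed above held no C/EBP-type match. Of the 6 windows, those at Ascl2, Nfil3 and Ddx5 held one and those at Ier3, H2afz and Sh2b3 did not.

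For IRF8 with IL-4 only, the highest peaks were nearest to Rps24, a ribosomal protein gene 288659 bp away, at 18.4, to Clic4, an intracellular chloride channel gene, at 17.7, and in intron 1 of Ercc6, a transcription-coupled repair gene, at 15.4. In control only they were at Zfp217, a zinc finger gene, at 8.46, at Elmsan1, at 8.07, and at Snhg3, a small nucleolar RNA host gene, at 7.96. These control-only scores were below the IL-4-only ones, but they head a group of 66 peaks against a group of 283. Over the whole groups the median score was 4.415 for control only and 4.8 for IL-4 only. The Zfp217 region was a strong C/EBPα site in both conditions, with 42.4 in control and 47.4 with IL-4.

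Where a peak was present in both conditions, IRF8 scores were higher with IL-4. Peaks of the 2 lists were paired one-to-one, and pairs with a CpG-island peak on either side were used. Of 232 IRF8 pairs, 168 (72.4%) scored higher with IL-4, and the median log2 ratio of IL-4 to control was 0.38 (quartiles -0.08 and 0.84). The median was 0.07 over 25607 other intronic and intergenic pairs and 0.28 over 1930 promoter pairs. For C/EBPα the median over 88 pairs was 0.08 (quartiles -0.32 and 0.38), with 46 pairs (52.3%) higher, and it was -0.01 over the other intronic and intergenic pairs. The quartile ranges of the 2 factors overlapped. The only JUNB pair, upstream of Sh2b3, went from 4.6 to 5.46.

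The 5 highest C/EBPα peaks were the same genes in both conditions. They lay near Sgca, a member of the dystrophin complex, scoring 88.2 in control and 97.6 with IL-4, near Tal1, a haematopoietic basic helix-loop-helix factor, at 74.97 and 72, and in intron 1 of Eif4a1, a translation initiation helicase, at 69.7 and 87.6. The last 2 were near Klrb1b, a natural killer cell lectin receptor, at 64.8 and 90.3, and in intron 1 of Arid5a, an RNA-binding protein that stabilises inflammatory transcripts, at 61.3 and 86.3. Of the 5, Tal1 alone had a lower value with IL-4. All 5 had a C/EBP-type match in the window, and all 5 had an IRF8 peak in at least 1 condition, weak except at Arid5a (34.0 in control and 39.6 with IL-4).

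IRF8 was highest in the intron of Cxcr4, the receptor for the chemokine CXCL12, at 194 in control and 222 with IL-4. C/EBPα peaks there scored 5.86 and 8.57. Intron 1 of Sh2b3, an adaptor that restrains cytokine signalling, followed in control at 129 and reached 143 with IL-4, with a C/EBPα peak in control only. Cmtm7 scored 85.2 and 122, Gse1 72.7 and 114, and Ankfy1, which acts in endosome traffic, 89.9 and 158. All 5 of these regions were higher with IL-4, but they are the 5 highest of the IRF8 IL-4 list, a choice that favours such a difference.

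**Figure D4:**
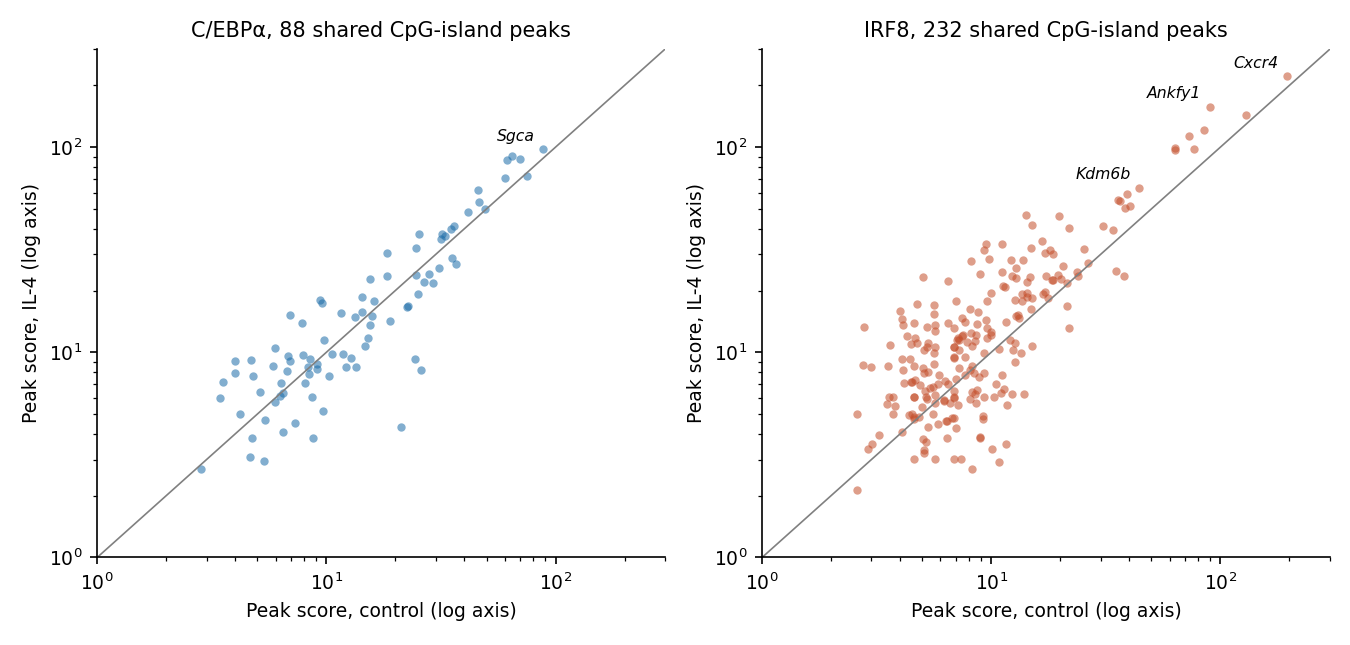
Peak score in control (x) against IL-4 (y), both on log axes, for the paired CpG-island peaks of C/EBPα (88 pairs) and IRF8 (232 pairs), 1 point per pair, with the line of equal scores. Of the IRF8 pairs 168 lie above the line, against 46 of the C/EBPα pairs.

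The motif of the factor was common in C/EBPα CpG-island peaks and less so in those of IRF8. A C/EBP-type match was in 47 of 111 C/EBPα control windows (42.3%, 33.6 to 51.6%) and 43 of 105 IL-4 windows (41.0%), against 34.5% and 33.7% of the other intronic and intergenic windows of the same length. The control interval included the share of the others. Among peaks with a score of 20 or more the shares were 70% (21 of 30) and 46.2% in control. In IRF8 CpG-island windows the C/EBP-type match was in 9.13% in control and 5.85% with IL-4.

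An ETS-IRF match was in 25 of 252 IRF8 control windows (9.92%) and 23 of 479 IL-4 windows (4.80%), against 15.6% and 14.8% of the others. The kept IRF8 IL-4 CpG-island peaks had it in 20 of 196 windows (10.2%), and the IL-4-only ones in 3 of 283 (1.06%). Among other intronic and intergenic IRF8 IL-4 peaks the shares were 17.1% and 8.89%. Under a score of 10 the match was in 2.38% of the kept and 0.743% of the IL-4-only CpG-island windows. These shares rest on a few matches, and the part of score was not tested. The interferon-stimulated response element core was in 8.67% of the kept and 3.53% of the IL-4-only windows. Both patterns hold more A and T than G and C. The median GC of the IRF8 CpG-island windows was 64.75% in control and 66.5% with IL-4, against 45% and 45.5% for the others. It was 64.75% for the kept and 67% for the IL-4-only windows. The part of base composition in these shares was not tested.

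A GC box (GGGCGG), the element of SP and KLF factors, was in 46.8% of the C/EBPα control, 40% of the C/EBPα IL-4, 42.9% of the IRF8 control and 49.5% of the IRF8 IL-4 windows, against 2.77 to 3.58% of the others. An ETS site with a CpG (CCGGAAG) was in 8.35 to 11.4%, against 1.45 to 1.67%. Both patterns hold a CpG, and they are also common in the promoter windows of these lists, at 19.4 to 29.8% and 8.68 to 13.04%. A STAT-type match (TTC and GAA with 3 or 4 bases between them) was in 8.73% of the IRF8 control and 6.26% of the IRF8 IL-4 windows. Over the other intronic and intergenic IRF8 windows the STAT-type share was 12.9% in control and 16.4% with IL-4. This pattern too holds more A and T than G and C, and the part of base composition was not tested. A match is a string of letters and not shown to be a binding site.

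C/EBPα and IRF8 met less often at CpG-island peaks than at other peaks. Of the C/EBPα control CpG-island peaks, 33 of 111 (29.7%, 22.0 to 38.8%) overlapped an IRF8 control peak, where 58.1% of all C/EBPα control peaks did. With IL-4 it was 39 of 105 (37.1%, 28.5 to 46.7%), where 60.6% of all did. Of the IRF8 control CpG-island peaks, 36 of 252 (14.3%, 10.5 to 19.1%) overlapped a C/EBPα peak, against 37.9% of all IRF8 control peaks. With IL-4 it was 48 of 479 (10.02%, 7.64 to 13.04%), against 35.3%. Each interval lay below its background.

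Values by distance to the TSS and by score are given beside these shares, and the part of either in the difference was not tested. Among other intronic and intergenic peaks within 2000 bp of a TSS, 45.9% of the C/EBPα control and 49.0% of the C/EBPα IL-4 peaks overlapped IRF8, and 28.6% and 27.0% of the CpG-island peaks that close did. Of the C/EBPα CpG-island peaks 5000 bp or more from a TSS, 28.1% in control and 45.5% with IL-4 did. The share of CpG-island peaks with no GENCODE start within 1000 bp that overlapped the other factor was 40.6% and 45.7% for C/EBPα, and 28.1% and 18.6% for IRF8. Among peaks with a score of 20 or more, 46.7% of the C/EBPα control CpG-island peaks and 77.6% of the other intronic and intergenic ones overlapped IRF8. When both lists were limited to scores of at least 10, 12% of the C/EBPα control CpG-island peaks overlapped, against 47.5% of the others.

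JUNB overlap was rare at the CpG-island peaks. It was found at 3 of 111 C/EBPα control peaks (2.70%), against 11.6% of the list, and at 4 of 252 IRF8 control peaks (1.59%), against 8.49%. With IL-4 it was 0 of 105 C/EBPα peaks, which allows a share of up to 2.86% by a limit of 3 counts, or 3.53% by the Wilson bound, and compares with 6.93% of the list, and 1 of 479 IRF8 peaks (0.209%), against 4.56%.

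**Figure D5:**
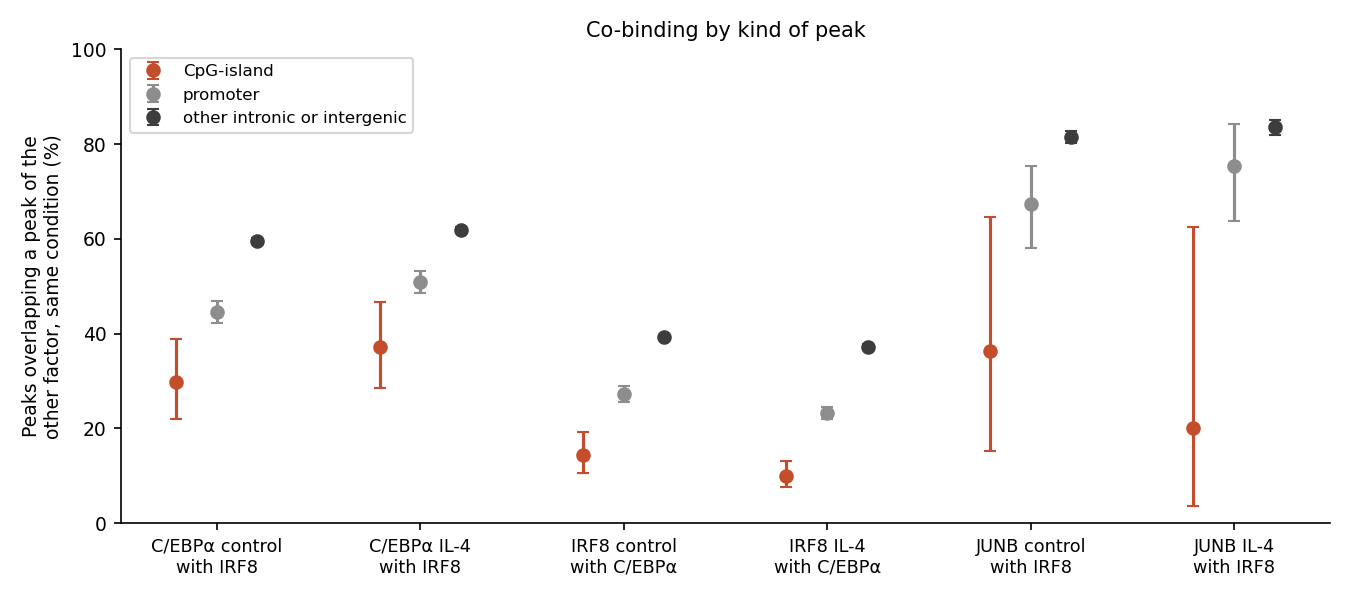
Share of peaks (%) that overlap a peak of another factor in the same condition, for CpG-island, promoter and other intronic or intergenic peaks of each list, with Wilson 95% intervals. The CpG-island share is the lowest of the 3 in every list, for example 29.7% against 59.6% of other intronic or intergenic peaks for C/EBPα control with IRF8, and rests on 11 and 5 peaks for JUNB.

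Over the merged regions, 595 of 687 (86.6%, 83.9 to 89.0%) held 1 factor, against 67.7% of all regions. IRF8 alone was at 505 regions, C/EBPα alone at 81, C/EBPα and IRF8 at 85, and JUNB alone at 9. The commonest pattern was IRF8 with IL-4 only and no other factor, at 259 regions (37.7%), followed by IRF8 alone in both conditions at 191 (27.8%). A region entered through a CpG-island peak in any list, and the IRF8 IL-4 list supplied 479 of the 963 such peaks. The shares of these patterns over all regions were not computed, so they cannot be called particular to CpG-island regions. C/EBPα and IRF8 were both present in both conditions at 30 regions without JUNB and at 2 with it.

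All 3 factors were found at 4 regions, and no region was in all 6 lists. At intron 1 of Kdm6b, which encodes a demethylase of histone H3 lysine 27, C/EBPα scored 31.8 in control and 35.6 with IL-4, IRF8 44.2 and 63.5, and JUNB 7.95 in control only. At intron 1 of Cdkn1a, which encodes the cell cycle inhibitor p21, C/EBPα scored 22.6 and 16.6, IRF8 7.68 and 7.78, and JUNB 8.23 in control only. These 2 regions were in 5 lists each. Near Stim2, an endoplasmic reticulum calcium sensor, C/EBPα scored 12.8 and 9.39, with IRF8 at 7.68 and JUNB at 6.79 in control only. Near Tac4 the peaks were weak, with C/EBPα at 4.41 and JUNB at 3.12 with IL-4 only and IRF8 at 3.78 in control only.

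The JUNB CpG-island peaks were few and mostly in 1 condition. Of the 11 in control, 10 had no IL-4 peak, against 64.2% of all JUNB control peaks, and of the 5 with IL-4, 4 had no control peak, against 39.2%. In control, 3 of 11 overlapped C/EBPα, against 72.3% of the list, and 4 of 11 overlapped IRF8, against 80.8%. With IL-4 it was 1 of 5 for each, against 73.4% and 82.6%. An AP-1 match was in 7 of the 11 control windows and 3 of the 5 IL-4 windows, against 48.1% and 43.8% of the other intronic and intergenic windows.

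JUNB scores at these sites were low. The highest in control was near Azin1, which encodes a regulator of polyamine synthesis, at 10.4, followed by Cdkn1a, Kdm6b, Lyl1, a haematopoietic basic helix-loop-helix factor, at 7.36, and Mir3089 at 6.79. With IL-4 the list was Sh2b3 at 5.46, Src, a tyrosine kinase, at 4.22, Tac4 at 3.12, a second Azin1 site at 3.12, and H3f3b, a histone H3.3 gene, at 2.74. The Azin1 sites of the 2 lists lay apart, at chr15:38470734-38471018 and chr15:38473541-38473700. At the shared region, 6021 bp upstream of Sh2b3, IRF8 scored 15.03 in control and 41.5 with IL-4.

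Of 14930 genes named in the 6 lists, 649 (4.35%) were nearest to a CpG-island region. Among 38 macrophage transcription factor genes it was 4 (Fosl2, Atf3, Bhlhe40 and Nfil3), among 31 chromatin regulator genes 5 (among them Hdac2, Kdm6b, Smarca2 and Cbx7), and among 34 signalling and feedback genes 4 (Spred2, Tgfb1, Skil and Jak1). It was 2 of 28 homeobox and other developmental regulator genes (Dlx2 among them) and 2 of 24 alternative activation genes (Egr2 and Klf4). Klf4 was also the only 1 of 3 IL-4-activated genes that the study named, a list chosen on data of these cells. None of 12 IL-4-repressed genes, 12 macrophage marker genes and 25 imprinted genes had one. These counts are small and were not tested against each other.

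Among the transcription factor genes, the Atf3 region, a stress-response factor, had IRF8 at 12.8 in control and 23.0 with IL-4 and C/EBPα at 5.79 with IL-4 only. The Bhlhe40 region had C/EBPα at 14.3 and 18.7 and no IRF8. Fosl2, an AP-1 subunit, had IRF8 at 5.81 in control only, and Egr2, a zinc finger factor, had C/EBPα at 5.43 with IL-4 only. The pair of Klf4 regions had only IRF8, at 9.58 in control and 17.8 with IL-4 in the one upstream (-118912 bp from the TSS), and at 6.14 with IL-4 only in the one downstream (17525 bp).

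Among chromatin and signalling genes, IRF8 with IL-4 only was found in intron 1 of Hdac2, a histone deacetylase, at 4.59. Cbx7, a Polycomb subunit, had IRF8 at 7.13 and 11.8, and Tgfb1, the cytokine, at 11.1 and 7.73. Smarca2, a remodelling ATPase, had C/EBPα alone, at 6.25 and 6.12, and Dlx2 had it in control only, at 3.71. The Skil region, at a negative regulator of TGF-β signalling, had C/EBPα at 35.4 and 28.9 and IRF8 at 17.2 and 30.3. Spred2, an inhibitor of the Ras pathway, had C/EBPα at 32.8 and 36.7 and IRF8 at 10.8 and 10.3. Upstream of Jak1, a kinase of the IL-4 receptor, the stronger region had C/EBPα at 60.1 and 70.7 and IRF8 at 6.73 and 9.18, and the other had only IRF8, at 5.09 and 10.3.

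Peaks near macrophage marker genes were counted as a description, since the lists hold no expression. All 9 macrophage marker genes looked up (among them Csf1r, Adgre1, Mertk and Lyz2) had between 1 and 10 peaks in every C/EBPα and IRF8 list, and 0 of them had a CpG-island region. In the JUNB lists, Itgam and Mertk had 0 peaks in both conditions, and Csf1r, Adgre1, Cd14 and Mpeg1 had 0 with IL-4. The share over all genes was not computed, so these counts do not identify the cell type. The read depth behind the lists is unknown.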

How the data were processed

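ChIP-seq was carried out on C/EBPα, IRF8 and JUNB in control and IL-4-treated BMDMs, with 1 sample per group. Per the labels and the paper, BWA (0.7.10) alignment to mm10 was done by the authors, who used SAMtools (0.1.19), called peaks per sample with MACS2 (2.0.10), removed blacklisted regions and annotated peaks with HOMER (4.2). The methods name a q-value limit of 0.01. The deposited Peak Score is a score of no stated unit, with lowest values of 1.3 to 1.76. How it relates to that q-value limit is not given in the sources used here. The deposited distance to the TSS is in bp. The control library, the depth and the kit of each sample are not given in the sources used here.

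Members and lists were chosen with earlier results of these data known. Peaks were compared by overlap of at least 1 bp, paired one-to-one with the largest overlap first, and merged over the 6 lists, with the top score per list kept for a region. GC, the CpG ratio and 12 motifs, on both strands, were taken from 200 bp windows on the peak centre in the supplied GRCm38 genome, the assembly of mm10, in which 0 peaks passed a chromosome end. Transcript starts came from GENCODE vM21. Intervals are Wilson 95% and cover counting error only. With 1 sample per group no test was run. Named were the 5 highest members of each list, the 3 highest found in 1 condition only for each factor, regions in all 6 lists, and members nearest to a gene of the lists. A few items that this rule names are not reported here. The regions with 3 factors, and those in 5 lists, were named after their values were seen. Deposited gene names were used, and 4 list genes were matched by older symbols. Overlap rules, score limits, list lengths, peak width and member definitions were varied. Scripts used Python 3.11.15 and pandas 2.3.3 and were tested on simulated data (13 of 13 checks passed).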

Additional observations from a re-analysis of the deposited data

Results flagged for a closer look

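The number of intronic and intergenic CpG-island peaks moved differently with IL-4 among the 3 factors. The IL-4 over control ratio was 1.90 for IRF8, 0.946 for C/EBPα and 0.455 for JUNB. Over all peaks of these factors it was 1.12, 1.01 and 0.590. The intervals of the C/EBPα and JUNB CpG-island ratios included 1, but all these intervals cover counting error only. With 1 sample per group the difference between the factors was not tested. The JUNB ratio rests on 11 and 5 peaks and came to 1.25 with the lists cut to equal length. The rise at IRF8 went with GC content over the whole IRF8 list.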

How the results depend on the processing

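No sample could be left out and no paired analysis was possible because each group held 1 sample. Under the alternatives, 122 of 150 recomputed values lay close to the reported value and 28 did not. Close meant within its interval or, for score changes, within 0.5 of the quartile range. The count of list genes has no interval and was judged by its ratio to the reported count. The 18 named peaks of 1 condition were chosen for having no partner, and none gained one with peaks set to 200 bp. That setting narrows most C/EBPα and IRF8 peaks, and the other settings can only remove partners, so this says little. The IRF8 ratio of numbers was between 1.70 and 1.996 except with the lists cut to equal length, where it was 1.49 and the share of IRF8 IL-4 peaks kept was 47.9%. C/EBPα and JUNB ratios crossed 1 in some settings, for C/EBPα at 1.03 over 5000 bp from the TSS and 1.09 without a GENCODE start nearby. A reciprocal overlap of 50% lowered the kept share of IRF8 to 59.5% in control and 33.4% with IL-4, the overlap of C/EBPα with IRF8 to 16.2% and 22.9%, and that of IRF8 with C/EBPα to 7.54% and 6.05%. Among other intronic and intergenic peaks the 4 overlap shares were then 46.5%, 47.4%, 30.6% and 28.7%. A score of at least 10 gave kept shares of 86.8% and 51.6% for IRF8, overlaps of 12% and 12.8% for C/EBPα with IRF8 and of 10.3% and 5.56% for IRF8 with C/EBPα, and 11 list genes in place of 17. It left JUNB with 1 control peak and 0 with IL-4, so its ratio, kept share, overlap with IRF8 and share within 2000 bp were 0. Members over 5000 bp from the TSS had a kept share of 87.5% for C/EBPα control and an overlap of 14.96% for IRF8 IL-4 with C/EBPα. Without a GENCODE start within 1000 bp the overlap was 40.6% for C/EBPα control and 28.1% and 18.6% for IRF8. The JUNB kept shares fell to 0 in both lists at equal length, and in control for windows of high GC and CpG ratio. With scores divided by the list median the JUNB pair had a log2 ratio of 0.59. The causes of these moves were not tested. Depth is unknown, so weak peaks missing from 1 list may have been missed at that depth.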
